A study of Homo sapiens with 8 samples.

Results

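The complement genes of human skin fibroblasts were measured by RNA sequencing in cells with more or less of PURPL, a long noncoding RNA. The set held 9 genes chosen by name, C3, CFB, CFD, C1R, C1S, SERPING1, CD55, CD46 and CD59, out of 59370 genes in the deposited tables. They were chosen with earlier results of these data known. All 9 were found, each in a single row of each table. The cells were BJ cells, a line of fibroblasts from human skin, grown in medium with fetal bovine serum. The 8 libraries formed 4 groups of 2. OE-PURPL cells overexpressed PURPL and had PCDNA cells as their control, and ASO-PURPL cells had PURPL knocked down with an antisense oligonucleotide and had ASO-NC cells as their control. How the RNA was overexpressed, the time after treatment and whether replicates came from separate cultures are not given in the sources used here, so a p-value here reflects variation among libraries that may be no more than technical.

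Complement is a cascade of plasma and tissue proteins that tags microbes and damaged cells for removal and can open pores in their membranes. The classical pathway starts when the proteases encoded by C1R and C1S, bound to the recognition protein C1q, are activated. The alternative pathway amplifies the reaction through factor B (CFB), which factor D (CFD) cleaves once it is bound to a fragment of C3. SERPING1 encodes the C1 inhibitor, which inactivates the C1r and C1s proteases, while CD55, CD46 and CD59 are membrane proteins that shield the cell's own surface. Most plasma complement is made in the liver, and fibroblasts are among the other cells known to make several components, the early classical ones among them. Genes of C3, CFB, C1R, C1S and SERPING1 are known to be induced by interferon or inflammatory cytokines in several human cell types.

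Levels are in FPKM, fragments per kilobase of transcript scaled to library size, a unit that corrects for length and so allows levels of different genes to be compared. The unit was inferred, sequencing depth was unknown, and the levels carry no estimate of counting error. PURPL stood at 153 and 238 FPKM in OE-PURPL against 5.42 and 5.73 FPKM in PCDNA, and at 6.31 and 4.24 FPKM in ASO-PURPL against 16.2 and 9.74 FPKM in ASO-NC. All 10 fibroblast markers listed, such as COL1A1 and THY1, averaged at least 1 FPKM. The hepatocyte, endothelial and adipocyte lists (4 genes each) had summed levels of 0.04 to 1.86, 0.161 to 1.66 and 0.0267 to 1.08 FPKM, and no gene of them averaged 1 FPKM. Of 5 keratinocyte markers, which summed to 8.07 to 35.5 FPKM, KRT10 alone did so. Replicate 1 of the 2 arms lies in separate tables and replicate 2 of all 4 groups in a single table, so levels of replicate 1 are set across tables that may have been normalized separately, and likewise replicate 1 beside replicate 2. In bulk RNA, fewer cells that express a gene and less of its RNA per cell cannot be told apart.

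Promoters are shown for CFB and C1R, the members with the largest difference between the control groups, and for CD46, which differed in opposite directions in the replicates. Of the 9 members, 6 (CFB, CFD, C1R, CD55, CD46 and CD59) were matched by symbol in the RefSeq promoter table on GRCh38.p14, with 11 windows in all, and the 250 bases before the start are given on the gene's strand. They lie at chr6:31945845-31946094 on the plus strand (CFB), chr12:7091894-7092143 on the minus strand (C1R, 1 of its 2 starts) and chr1:207751788-207752037 on the plus strand (CD46, 1 of its 2 starts). Capitals mark matches to motif letters on either strand.
CFB: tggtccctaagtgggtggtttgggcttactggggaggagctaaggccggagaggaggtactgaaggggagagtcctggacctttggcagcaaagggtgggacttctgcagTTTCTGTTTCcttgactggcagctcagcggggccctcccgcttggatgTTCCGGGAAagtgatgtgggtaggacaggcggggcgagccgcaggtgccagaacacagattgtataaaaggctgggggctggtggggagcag
C1R: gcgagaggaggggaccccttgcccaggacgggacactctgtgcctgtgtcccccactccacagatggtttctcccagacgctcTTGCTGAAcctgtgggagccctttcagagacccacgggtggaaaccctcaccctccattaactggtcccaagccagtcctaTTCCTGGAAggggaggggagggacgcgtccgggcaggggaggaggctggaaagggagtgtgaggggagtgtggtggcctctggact
CD46: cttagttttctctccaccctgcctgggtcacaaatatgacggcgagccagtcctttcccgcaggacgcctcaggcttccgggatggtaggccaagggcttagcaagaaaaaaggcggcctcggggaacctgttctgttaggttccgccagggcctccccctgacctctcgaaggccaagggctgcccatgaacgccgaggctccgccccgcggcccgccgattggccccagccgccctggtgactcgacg

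The motifs searched were TTCNNNGAA (GAS, the gamma-activated site), TTGCNNAA (C/EBP), the ISRE (interferon-stimulated response element, GAAA, any 2 bases and GAAA) and the NF-kB site (GGG, any 3 bases and TTCC). The CFB window held a GAS match, TTCCGGGAA, at -92 to -84 from the start, and an ISRE match on the reverse strand, TTTCTGTTTC, at -140 to -131. The C1R window held a GAS match, TTCCTGGAA, at -86 to -78, and a C/EBP match at -167 to -160, and the window of its other start held a C/EBP match alone. The 4 CD59 windows held 2 C/EBP matches in 1 window and, in a pair of overlapping windows, the same GAS match. No match to these letters lay in the windows of CFD, CD55 or CD46, and none to the NF-kB letters in any of the 11. No match overlapped a match to another motif. Among all 35116 promoter windows of this length, 6.57% held the GAS letters, 3.02% the ISRE letters, 5.67% the NF-kB letters and 9.05% the C/EBP letters, so a match is a description and not evidence of binding.

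In every library CD59, the inhibitor of the membrane attack complex, had the highest level of the 9 genes by far, and CFD the lowest. CD59 lay above 99.2% to 99.6% of the genes that reached 1 FPKM in the same library. Below it the order depended on the arm. In OE-PURPL and PCDNA, C1R, C1S and SERPING1 followed at 137 to 278 FPKM, then C3, CD46, CFB and CD55 at 29.1 to 63.4 FPKM. In ASO-PURPL and ASO-NC, C1S was at 61.5 to 113 FPKM and came next in each library but ASO-NC replicate 2, where CD46 was above it. C1R, SERPING1, CD46, CD55 and C3 lay between 14.9 and 62.7 FPKM in an order that changed between libraries, and CFB was at 1.61 to 2.59 FPKM. CFD stayed below 1 FPKM in all 8 libraries and was not tested; the other 8 passed the filter (1 FPKM or more on average in the 4 libraries of an arm) in both arms.

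**Figure D1:**
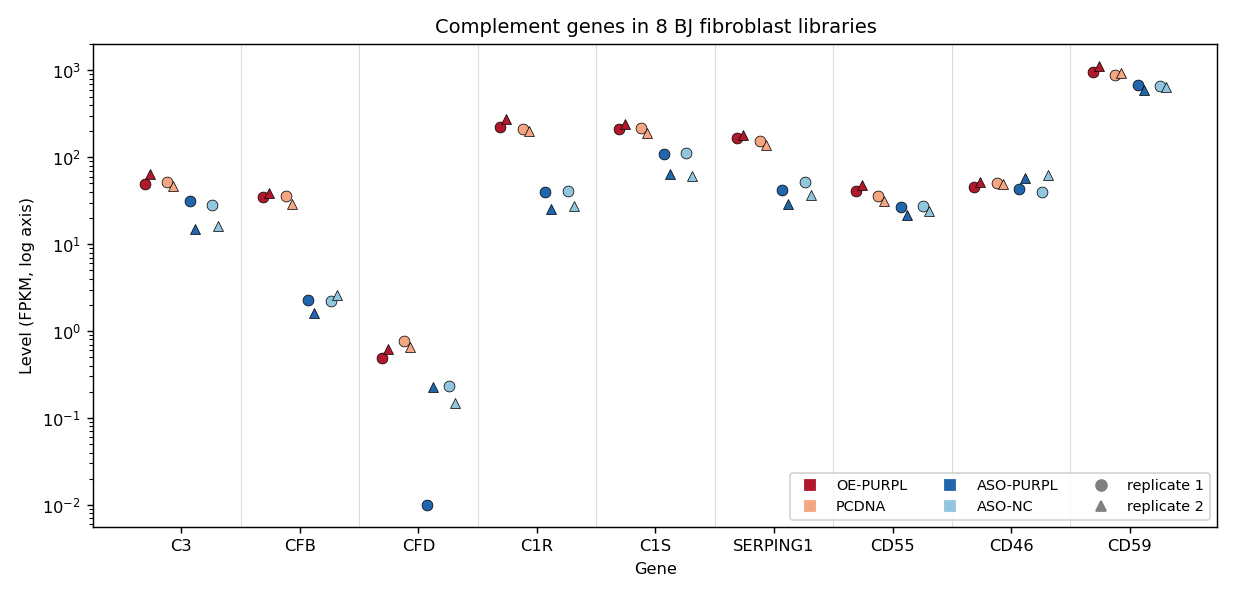
Level of each complement gene in FPKM on a log axis, with a point for each library, coloured by group and shaped by replicate. CFB and C1R stand apart most between the 4 left libraries of each gene (OE-PURPL, PCDNA) and the 4 right ones (ASO-PURPL, ASO-NC), CD46 does not, and CD59 is highest throughout.

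The clearest pattern was a difference between the 2 kinds of control library, PCDNA and ASO-NC. CFB, C1R and SERPING1 were higher in PCDNA by at least 1 on the log2 scale of FPKM plus 1 in both replicate numbers, C3 and C1S passed that size in replicate 2 only, and the membrane regulators differed by less. Of the 8 members that passed the filter, 3 were thus past this size upward and 0 downward, against 4.71% of the 14977 tested genes upward and 2.94% downward. In both replicate numbers 7 of the 8 were higher in PCDNA, against 35.7% of tested genes. The members' median difference was 0.89 in replicate 1 and 1.53 in replicate 2, beside -0.05 and 0.05 over all tested genes. Only replicate 2 compares both groups within a table, with 1 library each, so no test was run and these values are a description. The members were chosen with earlier results of these data known, so their excess over all tested genes may come in part from that choice.

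CFB (chromosome 6, 31945650 to 31952084, plus strand, on GRCh38 in GENCODE release 29), the protease of the alternative pathway convertase, stood at 35.8 and 29.1 FPKM in the PCDNA libraries, against 2.24 and 2.59 FPKM in ASO-NC, 16.0-fold and 11.3-fold higher. It ranked above 80.3% and 76.2% of the genes that reached 1 FPKM in PCDNA and above 18.0% and 19.8% of them in ASO-NC. OE-PURPL libraries were with PCDNA at 35.0 and 38.6 FPKM, and ASO-PURPL libraries with ASO-NC at 2.28 and 1.61 FPKM, so the arms did not overlap. With a pseudocount of 0.1 the mean log2 difference of CFB was 3.69 and with 5 it was 2.33, against 3.29 with 1. CFB overlaps the gene of C2 at its edge by annotation, and C2 was at 0.215 to 2.17 FPKM in all 8 libraries. Nearly all of CFB also lies within AL645922.1 (31927698 to 31952048), annotated as protein-coding on the same strand. No level of AL645922.1 is available here, so the values of CFB are uncertain to that extent.

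Of the initiating proteases, C1R (chromosome 12, 7080199 to 7092607, minus strand) stood at 214 and 201 FPKM in the PCDNA libraries, against 40.9 and 27.4 FPKM in ASO-NC, 5.23-fold and 7.34-fold higher. Its partner C1S (chromosome 12, 6988259 to 7071032, plus strand) stood at 217 and 189 FPKM in the PCDNA libraries, against 113 and 61.5 FPKM in ASO-NC, 1.93-fold and 3.08-fold higher. Both genes separated the arms, but C1R more than C1S. The C1 inhibitor gene SERPING1 (chromosome 11, 57597387 to 57614853, plus strand) stood at 155 and 137 FPKM in the PCDNA libraries, against 51.2 and 37.2 FPKM in ASO-NC, 3.03-fold and 3.69-fold higher. C1R overlaps C1RL and C1S overlaps EMG1 and LPCAT3 by annotation, so their values are uncertain to that extent.

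The central component C3 (chromosome 19, 6677704 to 6730562, minus strand) stood at 51.2 and 46.3 FPKM in the PCDNA libraries, against 28.2 and 16.2 FPKM in ASO-NC. The ASO libraries of replicate 1 were higher in C3, C1R, C1S and SERPING1 than those of replicate 2, in ASO-PURPL (31.3 against 14.9 FPKM for C3) as in ASO-NC, and these stand in different tables. The same libraries stood apart in some cell type markers. In replicate 1 and replicate 2, KRT10 was at 27.1 and 8.51 FPKM in ASO-PURPL and at 35.3 and 9.89 FPKM in ASO-NC, and LUM, a fibroblast marker, at 252 and 598 FPKM in ASO-PURPL and at 211 and 667 FPKM in ASO-NC. VIM, the fibroblast marker with the highest level, was at 1290 and 2060 FPKM in ASO-PURPL and at 1210 and 2280 FPKM in ASO-NC. COL3A1 went the other way, at 64.2 and 62.6 FPKM in ASO-PURPL and at 78.6 and 64.5 FPKM in ASO-NC. PDGFRB was lower in replicate 2 in ASO-NC only, and the other fibroblast markers were higher in replicate 2, THY1 by little. Keratinocyte markers other than KRT10 were at no more than 0.17 FPKM in these libraries. The 10 fibroblast markers summed to 3670 and 5130 FPKM in ASO-PURPL and to 3790 and 5700 FPKM in ASO-NC, beside 5350 to 5660 FPKM in OE-PURPL and PCDNA. Their part in the levels of the complement genes was not tested. The C3 gene overlaps GPR108 at its edge. CFD (chromosome 19, 859643 to 863630, plus strand), the protease that cleaves factor B and is also known as adipsin from fat cells, was at 0.759 and 0.662 FPKM in the PCDNA libraries, against 0.236 and 0.15 FPKM in ASO-NC, levels too low for a fold to be read.

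Among the membrane regulators, CD59 (chromosome 11, 33703010 to 33736491, minus strand) stood at 884 and 933 FPKM in the PCDNA libraries, against 665 and 649 FPKM in ASO-NC, 1.33-fold and 1.44-fold higher. CD55 (chromosome 1, 207321376 to 207386804, plus strand), which speeds the decay of the convertases, stood at 35.9 and 31.2 FPKM in the PCDNA libraries, against 27.7 and 23.8 FPKM in ASO-NC. CD59 and CD55 were higher in PCDNA in both replicate numbers, as were 35.7% of tested genes, by a margin far below that of CFB or C1R. CD46 (chromosome 1, 207752057 to 207795513, plus strand), a cofactor for the cleavage of C3b, stood at 51.2 and 48.8 FPKM in the PCDNA libraries, against 40.2 and 62.7 FPKM in ASO-NC. The CD46 groups overlapped and its direction differed between the replicate numbers, with log2 differences of 0.34 and -0.36. By annotation CD59 overlaps AL049629.2 (33698261 to 33722467), protein-coding on the same strand and without a level here, so the values of CD59 are uncertain to that extent.

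**Figure D2:**
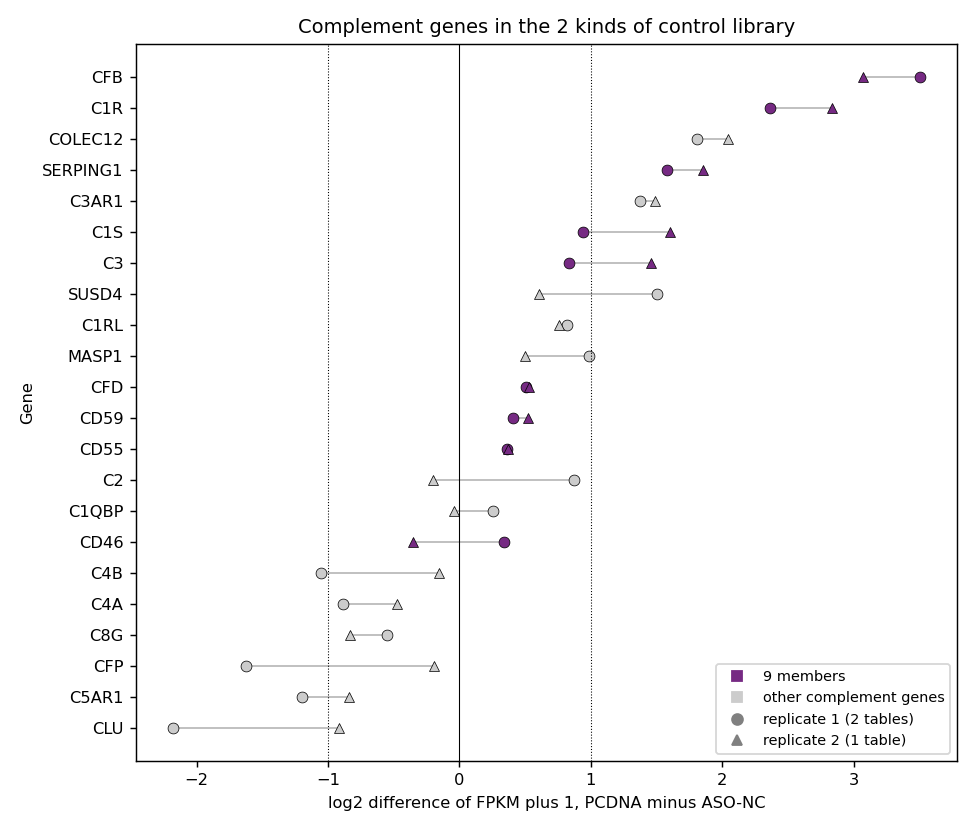
Log2 difference of FPKM plus 1, PCDNA minus ASO-NC, for the 9 members (purple) and the other complement genes named in the text (grey), with circles for replicate 1 and triangles for replicate 2 and dotted lines at -1 and 1. CFB and C1R lie farthest to the right, CD46 has a point on each side of 0, and CLU lies lowest.

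Ratios of levels within a library do not depend on how that library was scaled. C1S over C1R was 0.935 and 0.864 in OE-PURPL and 1.01 and 0.94 in PCDNA, and it was 2.71 and 2.48 in ASO-PURPL and 2.75 and 2.24 in ASO-NC. The RNAs of the paired proteases were thus at near-equal levels in the overexpression arm, while C1S RNA was in excess in the knockdown arm, with no overlap. The overlapping genes named above leave this ratio uncertain to that extent, and protein was not measured. CFB over C3 was 0.699 and 0.63 in PCDNA against 0.0794 and 0.159 in ASO-NC. SERPING1 over the sum of C1R and C1S overlapped between the arms, at 0.36 and 0.351 in PCDNA against 0.334 and 0.418 in ASO-NC. The summed level of the 5 components (C3, CFB, CFD, C1R, C1S) over that of the 3 membrane regulators was 0.534 and 0.46 in PCDNA against 0.251 and 0.147 in ASO-NC. C1R and C1S made up 81.6% to 84.2% of the summed components in all 8 libraries, and CD59 88.2% to 92.1% of the summed regulators.

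**Figure D3:**
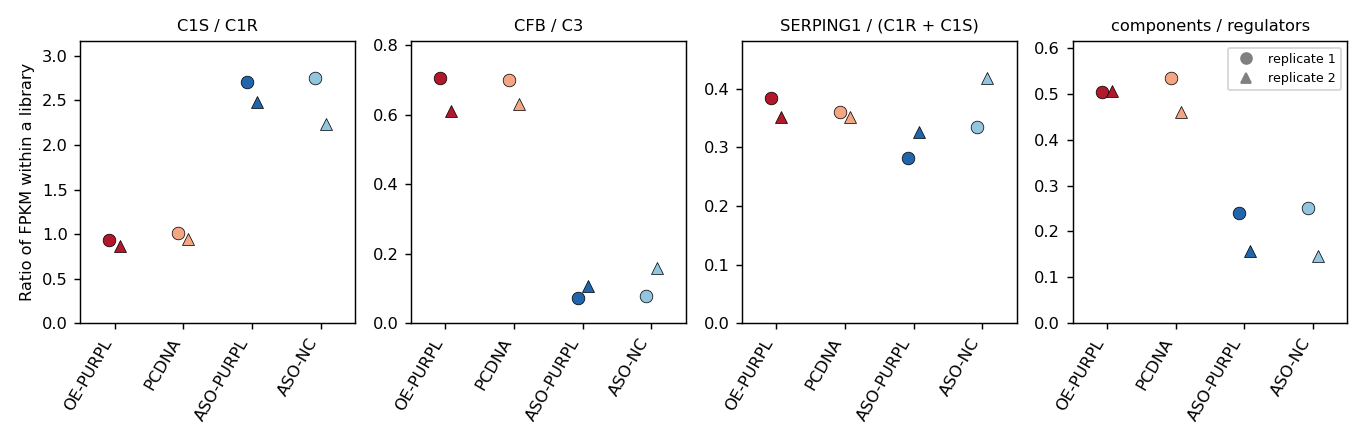
Ratios of FPKM within a library for 4 pairs of quantities, with a point for each library and axes that start at 0; "components / regulators" is the sum of C3, CFB, CFD, C1R and C1S over the sum of CD55, CD46 and CD59. C1S over C1R and CFB over C3 separate the 2 arms, while SERPING1 over C1R plus C1S does not.

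Some other measurements differed between the arms along with these genes, and others did so little. IRF1, a transcription factor of the interferon response, stood at 44.8 and 47.3 FPKM in the PCDNA libraries, against 15.3 and 14.2 FPKM in the ASO-NC libraries. NFKB1, a subunit of NF-kB, differed little, at 17.2 and 16.9 FPKM in the PCDNA libraries, against 15.9 and 15.3 FPKM in ASO-NC. The 10 macrophage and blood cell markers summed to 317 and 287 FPKM in the PCDNA libraries, against 82.7 and 68.0 FPKM in ASO-NC, nearly all of it CD68, a lysosomal protein (315 and 284 FPKM against 77.7 and 65.1 FPKM). CD14 and CSF1R, markers of monocytes and macrophages, were the other genes of the list that averaged at least 1 FPKM. CD14 was at 1.23 and 2.63 FPKM in PCDNA and 1.69 and 1.26 FPKM in ASO-NC, and CSF1R was at 0.689 and 0.173 FPKM in PCDNA and 1.8 and 0.802 FPKM in ASO-NC, the opposite direction to CD68. PTPRC, the defining marker of blood cells, reached 0.303 FPKM at most in any library, CD3E 0.0907 and MS4A1 0.01. The part of these differences in the complement pattern was not tested, and the delivered agent, the arm and whatever else differed between the experiments cannot be told apart.

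Of 50 other complement genes, listed with earlier results of these data known, 15 passed the filter, and 34 stayed below 1 FPKM in all 8 libraries. The chains of C1q, the recognition protein that C1R and C1S need, were among the low ones, with C1QA and C1QC at no more than 0.01 FPKM and C1QB at no more than 0.0834 FPKM. Several later components of the membrane attack complex were low as well, with C5 at 0.177 to 0.478 FPKM and C9 at 0.355 to 0.958 FPKM, and C8B no higher than 0.01 FPKM. C8G, of the same complex, was at 4.84 and 1.97 FPKM in ASO-PURPL and at 0.98 and 1.82 FPKM in ASO-NC. In OE-PURPL and PCDNA it was at 0.273 to 0.599 FPKM. Genes that passed the filter only through 1 arm had to differ, and COLEC12, C3AR1, SUSD4 and C2 (through the overexpression arm) and C5AR1, CFP and C8G (through the knockdown arm) are such genes. COLEC12, a scavenger receptor with a collagen-like region, stood at 4.53 and 5.2 FPKM in the PCDNA libraries, against 0.582 and 0.505 FPKM in ASO-NC. C3AR1, the receptor of the fragment C3a, was at 1.7 and 1.92 FPKM in the PCDNA libraries, against 0.0407 and 0.0431 FPKM in ASO-NC, while C5AR1, the receptor of C5a, was at 0.17 and 0.411 FPKM in the PCDNA libraries, against 1.69 and 1.53 FPKM in ASO-NC.

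The remaining listed genes differed less or went the other way. CLU, the chaperone clusterin that also holds back the terminal complex, stood at 20.4 and 17.1 FPKM in the PCDNA libraries, against 95.5 and 33.2 FPKM in ASO-NC. MASP1, a lectin pathway protease, had 42.7 and 36.1 FPKM against 21.1 and 25.2 FPKM, and C1RL, a relative of C1R, at 17.1 and 14.8 FPKM against 9.3 and 8.35 FPKM. C1QBP, a mostly mitochondrial protein that binds C1q, was at 83.6 and 73.8 FPKM against 69.8 and 76.0 FPKM. C4A and C4B, near-identical copies whose split is uncertain, were at 0.978 and 0.861 and at 1.09 and 1.32 FPKM in the PCDNA libraries, against 2.65 and 1.58 and 3.33 and 1.59 FPKM in ASO-NC. SUSD4 had log2 differences of 1.51 and 0.60, C2 of 0.87 and -0.20, CFP of -1.62 and -0.19, and C8G of -0.55 and -0.84.

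By a fixed rule, the 3 tested genes closest to each member were found by the root mean square difference of log2 FPKM plus 1, centred per gene, over the 8 libraries. CFB was closest to UBE2L6 (0.09), IFITM1 (0.12) and PLSCR1 (0.13), and C1R to ESM1 (0.08), VAMP5 (0.14) and MDK (0.15). C3 was closest to TMEM50A (0.10), C1S (0.10) and DPT (0.12), which places C3 and C1S among each other's nearest 3 genes of 14977. SERPING1 was closest to SLC25A28 (0.12), CD46 to TSPAN5 (0.06) and CD59 to RPA2 (0.05). Since the arm is the main difference over these libraries, genes that separate the arms to a like extent come out as close.

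After overexpression of PURPL no member passed the test, and the pairs differed in size. In the pair of replicate 2 all 8 tested members were higher in OE-PURPL than in PCDNA (53.4% of tested genes were), CD46 by little enough that it stood at -0.002 with libraries rescaled to an equal sum (median of all tested genes then -0.043). In the pair of replicate 1, 4 of 8 were (46.7%). By limma 0 of 8 were called higher and 0 lower at an adjusted p under 0.05, against 0.0267% and 0.0% of 14977 tested genes. At an unadjusted p under 0.05, 1 was higher, CD55, against 8.25% of tested genes, and 0 were lower, against 5.51%. The members' median log2 ratio was 0.02 in replicate 1 and 0.40 in replicate 2, beside -0.01 and 0.02 over all tested genes. With the trend over transcript length and GC content removed, the members' medians were 0.01 and 0.31.

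CD55, the decay accelerating factor, had the largest ratios, with 41.2 and 48.0 FPKM in OE-PURPL against 35.9 and 31.2 FPKM in PCDNA. Its estimate was 0.40 (SE 0.12, 95% interval 0.09 to 0.72, limma adjusted p = 0.326). SERPING1 stood at 167 and 182 FPKM in OE-PURPL against 155 and 137 FPKM in PCDNA (0.25, SE 0.10, 95% interval -0.01 to 0.52, limma adjusted p = 0.373). C1R stood at 224 and 278 FPKM in OE-PURPL against 214 and 201 FPKM in PCDNA (0.27, SE 0.12, limma adjusted p = 0.395). CD59 stood at 945 and 1124 FPKM in OE-PURPL against 884 and 933 FPKM in PCDNA (0.18, SE 0.11, limma adjusted p = 0.499). These 4 were higher in both pairs, against 32.6% of tested genes, and 0 were lower in both, against 31.1%. With each library rescaled to an equal sum, however, C1R, CD59 and SERPING1 had ratios of -0.03, -0.001 and 0.005 in replicate 1. The median of all tested genes in that replicate was then -0.1.

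C3, CFB, C1S and CD46 had opposite signs in the pairs. C3 stood at 49.6 and 63.4 FPKM in OE-PURPL against 51.2 and 46.3 FPKM in PCDNA, ratios that amount to -3.09% in replicate 1 and 37.0% in replicate 2. CFB, at 35.0 and 38.6 FPKM in OE-PURPL against 35.8 and 29.1 FPKM in PCDNA, differed by -2.21% and 32.6%. C1S, at 209.6 and 240.1 FPKM in OE-PURPL against 217 and 189 FPKM in PCDNA, differed by -3.45% and 27.0%. For these 3 genes the replicate 1 ratio was near 0, and the 95% intervals of their estimates ran from -0.17 to 0.57, from -0.26 to 0.63 and from -0.15 to 0.45. CD46, at 45.2 and 52.0 FPKM in OE-PURPL against 51.2 and 48.8 FPKM in PCDNA, had an estimate of -0.04 (95% interval -0.32 to 0.23). CFD, not tested, was lower in both pairs at 0.495 and 0.627 FPKM in OE-PURPL against 0.759 and 0.662 FPKM in PCDNA.

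CEBPB and CEBPD, C/EBP transcription factors that act on acute-phase genes, did not pass the test either. CEBPD stood at 38.2 and 39.6 FPKM in OE-PURPL against 26.2 and 20.8 FPKM in PCDNA (0.71, SE 0.12, limma adjusted p = 0.324), and CEBPB at 213 and 206 FPKM in OE-PURPL against 172 and 139 FPKM in PCDNA (0.44, SE 0.11, limma adjusted p = 0.324). After knockdown CEBPD was higher in both pairs as well, at 22.8 and 13.9 FPKM in ASO-PURPL against 17.5 and 10.8 FPKM in ASO-NC. Its estimate there was 0.345 (SE 0.12, limma adjusted p = 0.587). CEBPB had opposite signs in those pairs, at 95.2 and 96.7 FPKM in ASO-PURPL against 90.6 and 105.8 FPKM in ASO-NC. The part of CEBPB and CEBPD in the ratios of the complement genes was not tested. Of the 15 other complement genes, 0 were called by limma after overexpression and 0 had an unadjusted p under 0.05.

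**Figure D4:**
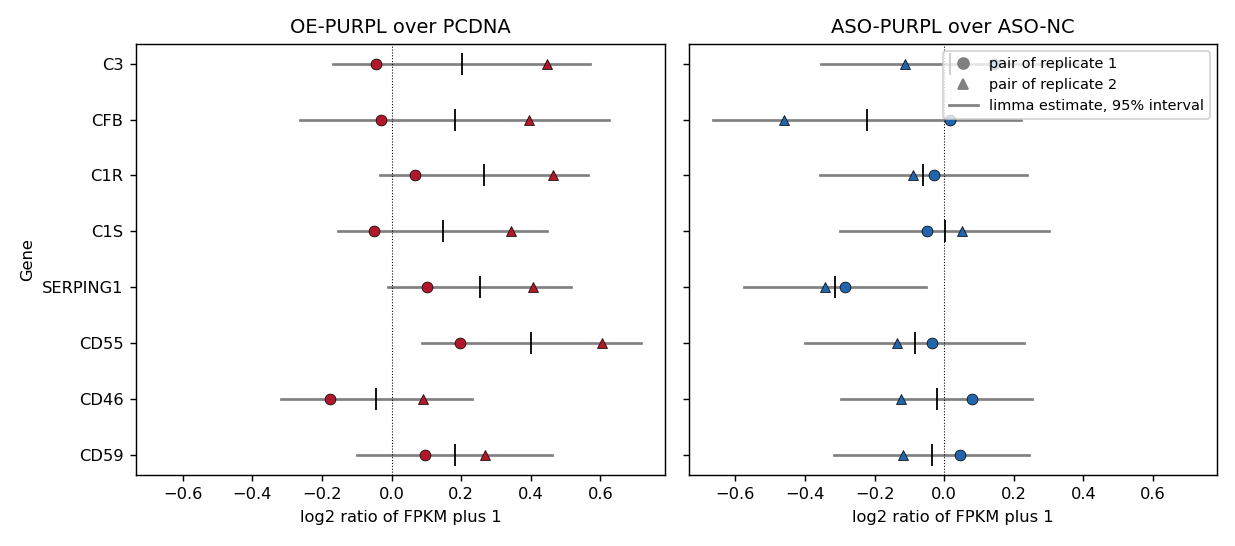
Log2 ratio of FPKM plus 1 in each pair of libraries for the 8 tested members, with OE-PURPL over PCDNA on the left and ASO-PURPL over ASO-NC on the right; bars mark the limma estimate and grey lines its 95% interval. On the left the triangles of replicate 2 lie to the right of the circles for each gene, and on the right both points of SERPING1 lie below 0.

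After knockdown of PURPL the complement genes stayed close to their control, with SERPING1 as the member that differed most alike in both pairs. SERPING1 stood at 41.8 and 29.1 FPKM in ASO-PURPL against 51.2 and 37.2 FPKM in ASO-NC, 18.3% and 21.6% less. The pairs gave log2 ratios of -0.28 and -0.34, although the levels of the groups overlapped across the tables, and the estimate was -0.31 (SE 0.10, 95% interval -0.57 to -0.05, limma adjusted p = 0.587). By limma 0 of 8 members were called higher and 0 lower, against 0.0% and 0.0% of tested genes. At an unadjusted p under 0.05, 0 were higher (3.54% of tested genes) and 1, SERPING1, was lower (4.64% of tested genes). PURPL itself, lower in both pairs, was not called in this comparison either (-1.13, SE 0.16, limma adjusted p = 0.374). A member that was not called may therefore still have changed.

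CFB stood at 2.28 and 1.61 FPKM in ASO-PURPL against 2.24 and 2.59 FPKM in ASO-NC, so that its difference rested on replicate 2 (log2 ratios 0.02 and -0.46). C3 stood at 31.3 and 14.9 FPKM in ASO-PURPL against 28.2 and 16.2 FPKM in ASO-NC, and C1R at 40.1 and 25.7 FPKM in ASO-PURPL against 40.9 and 27.4 FPKM in ASO-NC. C1S, at 109 and 63.7 FPKM in ASO-PURPL against 113 and 61.5 FPKM in ASO-NC, had the estimate nearest 0 (95% interval -0.30 to 0.30). In C3, C1R and C1S the replicates differed by more than ASO-PURPL and ASO-NC did within a pair.

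The membrane regulators were close to their control too. CD59 stood at 686 and 597 FPKM in ASO-PURPL against 665 and 649 FPKM in ASO-NC, CD55 at 27.0 and 21.6 FPKM in ASO-PURPL against 27.7 and 23.8 FPKM in ASO-NC, and CD46 at 42.6 and 57.6 FPKM in ASO-PURPL against 40.2 and 62.7 FPKM in ASO-NC. Their 95% intervals ran from -0.32 to 0.24, from -0.40 to 0.23 and from -0.30 to 0.25, so changes within those bounds remain possible. CFD was listed at 0.01 FPKM, the lowest value of its table, and at 0.224 FPKM in ASO-PURPL, against 0.236 and 0.15 FPKM in ASO-NC. SERPING1, C1R and CD55 were lower in both pairs, 3 of 8 members, against 33.4% of tested genes, and 0 were higher in both, against 19.3%. With each library rescaled to an equal sum, CFB (-0.04 and -0.48) and CD59 (-0.03 and -0.03) were lower in both pairs as well, and C3 and CD46 were higher in the pair of replicate 1. The median of all tested genes was then -0.09 in replicate 1 and 0.02 in replicate 2, so CFB and CD59 stood above it in replicate 1. The share of tested genes in each direction was not computed for the rescaled libraries. As deposited, in the pair of replicate 1, 4 of 8 were higher in ASO-PURPL (45.8% of tested genes), and in that of replicate 2, 1 of 8 was (39.3%). Of the 15 other complement genes 0 were called, and C4A had an unadjusted p under 0.05 with 3.71 and 3.71 FPKM in ASO-PURPL against 2.65 and 1.58 FPKM in ASO-NC (limma adjusted p = 0.587). Its near-identical copy C4B was at 2.33 and 3.44 FPKM in ASO-PURPL against 3.33 and 1.59 FPKM in ASO-NC. The C4B pairs had opposite signs (log2 ratios -0.38 and 0.78), and the split of reads between the copies is uncertain.

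The overexpression change was set against the knockdown change in the same fit. No member passed, with 0 of 8 called higher and 0 lower by limma, against 0.02% and 0.0% of tested genes. At an unadjusted p under 0.05, 2 members had the higher overexpression change, SERPING1 (difference 0.57, SE 0.15, limma adjusted p = 0.35) and CD55 (0.49, SE 0.18, limma adjusted p = 0.373), against 8.52% of tested genes, and 0 the lower, against 4.47%. The arms also differ in the baseline described above, which cannot be told apart from the treatment.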

How the data were processed

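RNA of 8 BJ cell libraries was sequenced. Per the submitters' processing notes, the tools were STAR and Cufflinks (no versions) and the build was hg38. No source used here names the annotation. The authors deposited 3 tables of 60635 rows, read here as FPKM (the unit is inferred from Cufflinks and from library sums of 463588 to 586913), and log2 fold changes for replicate 1, which the authors computed and which were used only to check the columns. Read depth is unknown. Where a name was repeated (1264 rows per table) the row of highest mean was kept, and a gene with a text cell was left out. Each treated library was set against the control of its table and number, as the log2 ratio of FPKM plus 1, so that fold changes of low genes are understated. The 14977 genes that averaged 1 FPKM or more in an arm entered a limma fit (limma 3.58.1, R 4.3.3, trend on mean level, 2 residual and 3.34 prior degrees of freedom, Benjamini-Hochberg over all genes). The pairing follows the shared tables: deviations of same-numbered libraries had a correlation of 0.143 between OE-PURPL and PCDNA and of 0.491 between ASO-PURPL and ASO-NC. Members were always named, other complement genes where they passed the filter; results of some genes are not reported here. The members and lists were chosen with earlier results of these data known. Sequences are from RefSeq on GRCh38.p14, and positions from GENCODE release 29 on GRCh38, the assembly of hg38. The text of the series' design names cells that no label holds and was not used.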

Additional observations from a re-analysis of the deposited data

Results flagged for a closer look

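For 3 members both overexpression pairs moved one way and both knockdown pairs the other, higher in OE-PURPL than in PCDNA and lower in ASO-PURPL than in ASO-NC. The same held for 12.5% of the 14977 tested genes. The overexpression change minus the knockdown change was 0.57 for SERPING1 (95% interval 0.20 to 0.94, limma adjusted p = 0.35), 0.49 for CD55 (0.04 to 0.93, adjusted p = 0.373) and 0.33 for C1R (-0.10 to 0.75, adjusted p = 0.453), on the log2 scale of FPKM plus 1. None passed the test of the difference. With each library rescaled to an equal sum, the C1R ratio of OE-PURPL replicate 1 was -0.03, beside a median of -0.1 over all tested genes.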

How the results depend on the processing

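Over 24 member results (8 members in 3 tests) and 328 recomputed values, none was called under any alternative, and 21 values had the other sign than the main fit. With quantile normalization of the 8 libraries and no replicate block, these were C1S (-0.048) and CD59 (-0.013) after overexpression, CD46 (0.034) after knockdown and C1S (-0.085) for the difference of the changes. With the length and GC trend removed they were CD46 after overexpression (0.19), CD59 after knockdown (0.0031) and CD46 for the difference (0.19). With a pseudocount of 5, C1S after knockdown was -2.5e-05. Leaving out 1 pair in turn gave ranges after overexpression of -0.044 to 0.446 for C3, -0.031 to 0.396 for CFB, -0.05 to 0.344 for C1S and -0.176 to 0.089 for CD46. After knockdown they were -0.112 to 0.144 for C3, -0.461 to 0.018 for CFB, -0.05 to 0.052 for C1S, -0.123 to 0.08 for CD46 and -0.118 to 0.046 for CD59. For the difference they were -0.06 to 0.43 for C3, -0.051 to 0.343 for C1S and -0.155 to 0.11 for CD46. The signs of C1R, SERPING1 and CD55 held throughout, and the overexpression estimates without OE-PURPL replicate 1 were larger than without replicate 2 for each of the 8 members.

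Counts over all genes were small in the tests and moved. After overexpression 4 genes were higher, 2 with a pseudocount of 5, 0 with each comparison fitted on its own, 1 with the length and GC trend removed, 5 with quantile normalization and no replicate block together, and 0 to 1 with a pair left out. After knockdown 0 genes were higher and 0 lower, 7 and 2 with no filter, and 2 were lower with a pseudocount of 0.1. For the difference 3 genes were higher, 5 with a pseudocount of 0.1 and 0 with any pair left out. Against 0 lower, 1 gene was lower with a pseudocount of 0.1, 6 with no filter and 1 with quantile normalization and no replicate block together. Between PCDNA and ASO-NC 705 genes were higher, 339 with a pseudocount of 5 and 1159 to 1196 with 1 replicate left out. Against 440 lower, the count was 1063 with a pseudocount of 0.1, 93 with 5, 756 with libraries rescaled to an equal sum and 781 to 1634 with 1 replicate left out. Between PCDNA and ASO-NC, leaving out 1 replicate asks for the size of 1 in the other replicate only, so those counts cannot fall. A higher pseudocount makes each log2 difference smaller in size, and a lower one makes it larger, against the same size of 1. The cause of the other moves was not tested. With the lone pair left in an arm, its spread is taken from the other arm. Unknown depth limits what can be said of CFD and of the genes below 1 FPKM.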
